A study of Mus musculus with 5 samples.

Results

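The genes described here are 10 receptors through which hormones, fatty acids and neurotransmitters adjust how much insulin a beta cell releases. They were chosen by name from a table of 23951 genes, in which all 10 were found. The incretin and glucagon family is represented by Glp1r, Gipr, Gcgr and Adcyap1r1, the lipid sensors by Gpr119 and Ffar1, the autonomic inputs by Chrm3 and Adra2a, and paracrine and lactogenic inputs by Sstr3 and Prlr. RNA-seq was done on pancreatic beta cells of transgenic mice, 5 samples in all. The p16 group held 3 samples from Ins-rtTA/tet-GFP/tet-p16ink4a mice, in which tetracycline switches on green fluorescent protein (GFP) together with p16INK4a, an inhibitor of the cyclin D kinases. The GFP group held 2 samples from Ins-rtTA/tet-GFP mice, in which only the fluorescent protein is induced. Both groups carried the tetracycline-dependent activator rtTA, named in the labels as an Ins transgene, received tetracycline for 10 days, and were sorted from dissociated islets for GFP fluorescence. The series' design text counts 3 and 2 mice. Age, sex, strain and the species of the p16ink4a sequence are not stated in the labels.

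Insulin release is triggered by glucose metabolism and calcium entry, and receptors tune its size. Receptors coupled to the G protein Gs raise cyclic AMP (cAMP), which acts through protein kinase A and the exchange factor Epac2 to amplify exocytosis. Receptors coupled to Gq act through phospholipase C, inositol trisphosphate and protein kinase C, receptors coupled to Gi lower cAMP and restrain release, and the prolactin receptor signals through JAK2 and STAT5 and is best known in beta cells for their expansion in pregnancy.

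The authors deposited 1 FPKM value per group and gene, a fragment number corrected for transcript length and for library size, so levels can be compared between genes per length. Values per sample, and with them the SD and the depth of each library, are not given in the table. Whether the groups differed was read from the q-value, the p-value adjusted for multiple testing, of the authors' Cuffdiff comparison at a threshold of 0.05. The identity of the cells was checked on markers: the beta-cell genes G6pc2 and Slc30a8 stood at 3012 and 648.1 FPKM in GFP cells and 2327 and 405.4 FPKM in p16 cells. Ins1, Ins2 and Iapp carry no estimate, being listed at 0 because of too many fragments. With these 3 counted at 0, the 11 beta-cell markers summed to 4790 FPKM in GFP cells and 3698 FPKM in p16 cells. Of 8 tested, 1 was higher and 1 lower. The glucagon gene Gcg of alpha cells, the somatostatin gene Sst of delta cells and Ppy and Pyy of PP cells were also abundant in both groups, with values given further below. Endothelial markers summed to 3.10 FPKM in GFP cells and 3.63 FPKM in p16 cells over 8 genes, and acinar markers to 15.98 and 17.03 FPKM over 9 genes, with none called of the 1 endothelial and 6 acinar markers tested. Other classes held calls in the authors' deposited table. Duct markers, 7 genes, summed to 151.8 and 182.0 FPKM, with 2 higher and 1 lower of 6 tested. Most of that sum was Krt7, at 134.0 and 151.5 FPKM without passing (authors' deposited table, q = 0.814). The markers called higher were Spp1, at 3.85 and 15.1 FPKM, and Sox9, at 0.122 and 0.492 FPKM. The marker called lower was Krt19, at 5.75 and 1.79 FPKM. Leukocyte markers, 9 genes, summed to 33.9 and 43.0 FPKM, with 1 higher of 3 tested. Most of it was C1qa, at 25.9 and 35.1 FPKM without passing (authors' deposited table, q = 0.449), while Ptprc stood at 0.00329 and 0.0269 FPKM. The marker called was Cd68, at 0.229 and 1.95 FPKM (authors' deposited table, q = 0.0498). Stellate cell and fibroblast markers, 9 genes, summed to 0.652 and 4.97 FPKM, and both that were tested were higher. The part of these cells in the receptors' values was not tested.

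None of the 9 receptors that the authors tested differed between the groups at a q below 0.05, where 5.42% of the 13264 tested genes did, 4.32% being higher and 1.10% lower with p16. At an unadjusted p below 0.05 there were 2 receptors, Gcgr and Gpr119, of 9, where 17.2% of tested genes lay. Of the 9, 5 had the higher value with p16 and 4 the lower. The median log2 ratio of p16 to GFP was 0.02 over all 10 receptors, 0.12 over the 9 tested receptors and -0.02 over all tested genes. In 7 of the 9 the log2 ratio was under 0.5 in size, less than a 1.41-fold difference. In bulk samples such as these, fewer cells of a type and less RNA per cell cannot be told apart.

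Glp1r, the receptor of the incretin hormone GLP-1, was the most abundant of the 10 in both groups. It stood at 150.7 FPKM in GFP cells and 136.5 FPKM in p16 cells, above 96.2% of tested genes in each. Adra2a followed at 114.5 and 128.4 FPKM, and Prlr at 92.5 and 87.1 FPKM. Sstr3, Gipr and Ffar1 came next with 39.9, 31.9 and 27.6 FPKM in the GFP group. Chrm3, Gcgr and Gpr119 stood at 17.5, 14.7 and 12.2 FPKM there, and Adcyap1r1 was last at 0.0444 FPKM. The order in the p16 group differed only in that Gcgr, at 27.0 FPKM, stood above Chrm3, at 16.4 FPKM. The levels carry no error between samples, so it cannot be said which neighbours in this order differ beyond their spread.

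**Figure D1:**
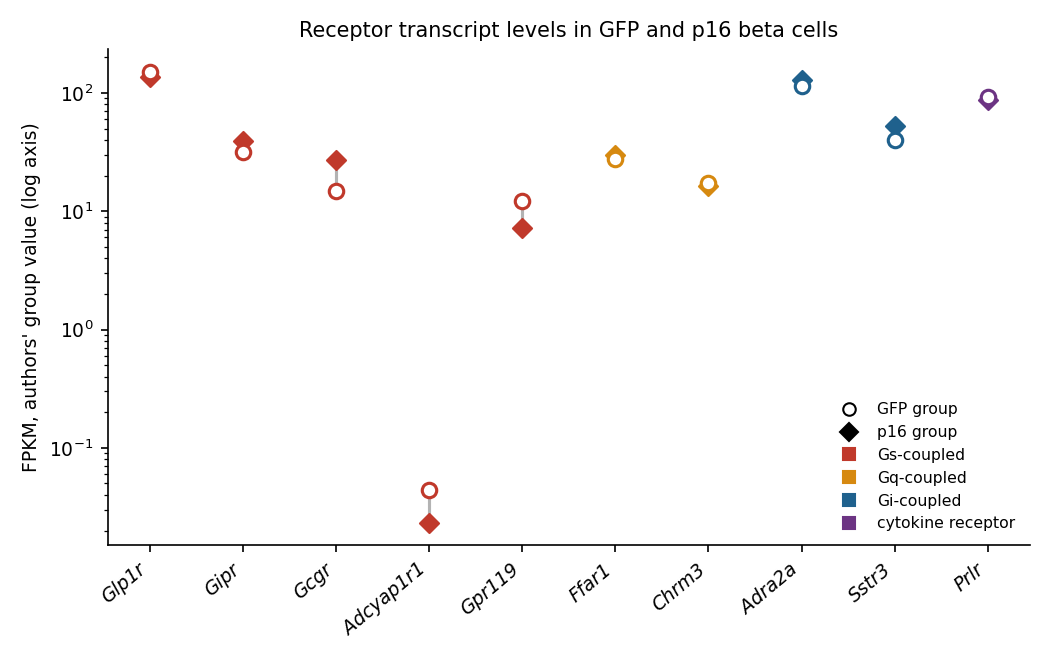
Level of each receptor transcript in FPKM, on a log axis, as the authors' group value for GFP (open circles, 2 samples) and p16 (filled diamonds, 3 samples), coloured by the receptor's main coupling. The symbols of 1 gene lie close together for most receptors, Gcgr and Gpr119 part in opposite directions, and Adcyap1r1 lies below 0.1 FPKM in both groups.

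The Gs-coupled receptors are those whose ligands amplify glucose-induced release. Glp1r, at chromosome 17, 31038812 to 31073455 in the mm9 build, had a log2 ratio of -0.14 (authors' deposited table, q = 0.870), which became 0.01 with quantile normalization. Gipr, the receptor of the incretin GIP, at chromosome 7, 19742474 to 19751476, stood at 31.9 FPKM in GFP cells and 38.9 FPKM in p16 cells, a ratio of 1.22 (authors' deposited table, q = 0.673). With the median of genes of like GC content subtracted, its log2 ratio went from 0.29 to -0.0028. Both incretin receptors thus had group values closer together than those of Gcgr.

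Gcgr, the glucagon receptor, at chromosome 11, 120392041 to 120400298, had the smallest p of the 10. It stood at 14.7 FPKM in GFP cells and 27.0 FPKM in p16 cells, a ratio of 1.84 or a log2 ratio of 0.88, and missed the threshold narrowly (authors' deposited table, q = 0.0559). Its unadjusted p-value was 0.0032 in the authors' deposited table, where the largest that still passed, over all genes, was 0.0027. At a q below 0.1, which 7.73% of tested genes met, Gcgr was the 1 receptor called. Among tested genes within the receptors' range of mean FPKM, the smallest fold that passed was 1.76, below the fold of Gcgr. Gpr119, a receptor for lipid amides such as oleoylethanolamide, lies on chromosome X, 46021156 to 46027655. It went the other way, from 12.2 to 7.17 FPKM, 1.696-fold lower with p16, without passing (authors' deposited table, q = 0.132). Gcgr was thus 1.21 times as abundant as Gpr119 in the GFP group and 3.77 times as abundant in the p16 group, a contrast picked out after the values were seen and not tested.

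Adcyap1r1, which encodes the PACAP receptor PAC1, at chromosome 6, 55401972 to 55451449, was near 0 in both groups. Its values were 0.0444 FPKM in GFP cells and 0.0232 FPKM in p16 cells, too low for the authors to test. Its log2 ratio of -0.93 therefore describes values near 0, and with a pseudocount of 1 it was -0.03. Vipr1, which encodes VPAC1, a receptor shared by PACAP and VIP, was the more abundant receptor for PACAP here, at 14.2 and 5.70 FPKM.

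Summed over the 5 Gs-coupled receptors, the level was 209.5 FPKM in GFP cells and 209.6 FPKM in p16 cells. Glp1r supplied 71.9% of that sum in the GFP group and 65.1% in the p16 group. The ratio of Glp1r to Gcgr transcripts was 10.3 in the GFP group and 5.06 in the p16 group. These sums and ratios are descriptions of 2 group values and have no test.

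Both Gq-coupled receptors had log2 ratios near 0, 0.12 for Ffar1 and -0.09 for Chrm3. Ffar1, the long-chain fatty acid receptor also known as GPR40, stood at 27.6 FPKM in GFP cells and 29.9 FPKM in p16 cells (authors' deposited table, q = 0.910). Its locus in the table, chromosome 7, 31645587 to 31646489, is only 903 bases long, whereas the longest transcript of Ffar1 in GENCODE release M21 has 4175 bases. Its FPKM may therefore rest on a short gene model, which bears on its rank among the receptors and not on the ratio between groups. The short model also bears on its GC content given below, which was taken from the longer transcript. Chrm3, the muscarinic receptor through which acetylcholine of the vagus nerve promotes release, stood at 17.5 and 16.4 FPKM (authors' deposited table, q = 0.924). It lies at chromosome 13, 9875859 to 10360049. The sum of both was 45.0 FPKM in GFP cells and 46.3 FPKM in p16 cells.

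The Gi-coupled receptors, which restrain release, both had the higher value with p16 without passing the test. Adra2a, the alpha-2A adrenergic receptor through which adrenaline and noradrenaline inhibit insulin release, lies at chromosome 19, 54119672 to 54123472. It stood at 114.5 FPKM in GFP cells and 128.4 FPKM in p16 cells, a ratio of 1.12 (authors' deposited table, q = 0.849). Sstr3, a somatostatin receptor, at chromosome 15, 78367445 to 78374775, stood at 39.9 and 52.6 FPKM, a ratio of 1.32 (authors' deposited table, q = 0.475). Their sum was 154.4 FPKM in GFP cells and 181.0 FPKM in p16 cells, so the summed level of Gs-coupled over Gi-coupled receptors was 1.36 in the GFP group and 1.16 in the p16 group. With the median of genes of like GC content subtracted, the log2 ratio of Adra2a turned from 0.16 to -0.12 and that of Sstr3 went from 0.40 to 0.11.

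Prlr, the prolactin receptor, is a cytokine receptor and lies on the same chromosome as Sstr3, at 10106993 to 10278935. It stood at 92.5 FPKM in GFP cells and 87.1 FPKM in p16 cells (authors' deposited table, q = 0.940), the largest q among the 9. Its log2 ratio of -0.09 was 0.05 with quantile normalization and 0.24 with the median of genes of like GC content subtracted. No other gene of the table overlapped the locus of any of the 10 receptors.

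A q above the threshold does not show that a receptor was equal in both groups, so an interval was derived for each difference. If the error of a log2 ratio is taken as normal, the authors' p implies a standard error between 0.27 and 0.30 for the 9 receptors. The 95% interval of the p16 to GFP ratio then ran from 0.624 to 1.31 for Glp1r, from 0.833 to 1.78 for Gipr and from 0.763 to 1.65 for Adra2a. For Prlr it ran from 0.629 to 1.41, for Chrm3 from 0.653 to 1.35 and for Ffar1 from 0.718 to 1.64. The intervals of these 6 receptors span 1, and the widest bounds among them are a Gipr level 1.78 times that of the GFP group and a Glp1r level 0.624 times that of the GFP group. These bounds are the tighter of 2 versions. The interval of Sstr3, from 0.914 to 1.91, spans 1 as well. Those of Gcgr, from 1.23 to 2.76, and Gpr119, from 0.390 to 0.891, do not, as their unadjusted p below 0.05 implies. The test statistic in the authors' deposited table implies wider errors, between 0.42 and 0.52, with which the interval of Gcgr ran from 1.01 to 3.36 and that of Gpr119 from 0.312 to 1.12. With these errors the widest bounds of the 6 receptors were 2.22 for Gipr and 0.463 for Prlr, and Glp1r reached down to 0.503.

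**Figure D2:**
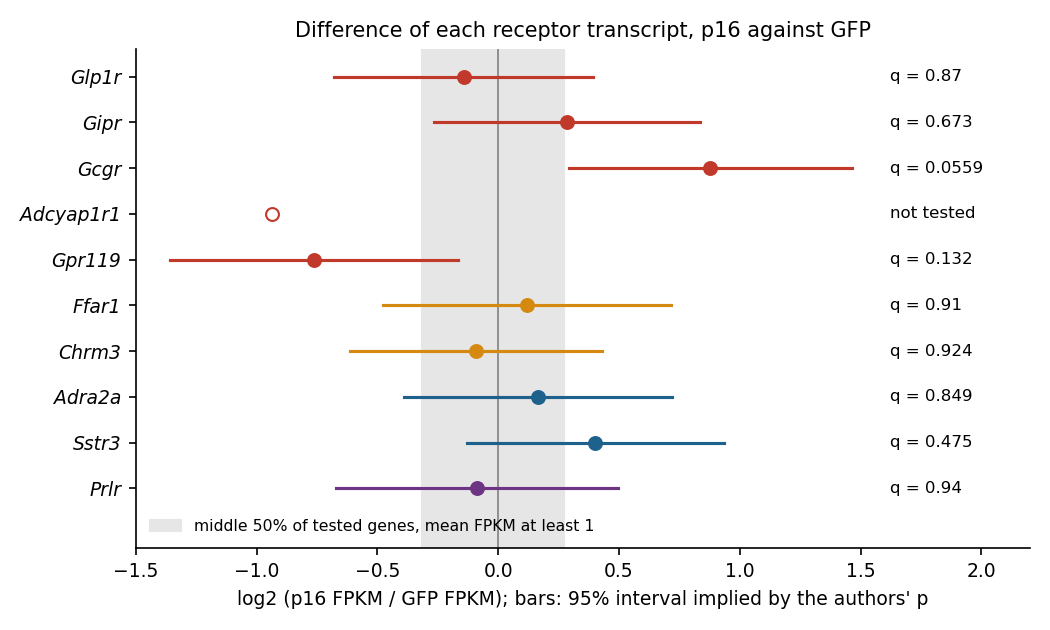
Log2 ratio of p16 to GFP FPKM for each receptor (points; red for Gs-coupled, orange for Gq-coupled, blue for Gi-coupled, purple for the cytokine receptor), with the 95% interval implied by the authors' p (bars), the authors' q, and in grey the range of the middle 50% of tested genes of at least 1 FPKM on average. The bars of Gcgr and Gpr119 lie to the right and left of 0 and the other bars cross it, while Adcyap1r1 (open point) was not tested.

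The tested receptors had mean values from 9.66 to 143.6 FPKM. In that range 293 of 6113 tested genes passed, or 4.79%. The median size of the log2 ratio was 0.16 for the 9 receptors and 0.27 for all tested genes of the range.

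Transcript GC content moved with the differences across genes, and the receptors followed it in part. The tested genes were parted into 5 bins of equal size by the GC content of their longest transcript. From the lowest to the highest bin, the share of tested genes called higher with p16 at a q below 0.05 went from 1.598% to 8.33%. The share called lower went from 2.97% to 0.533%. Gcgr, Gipr, Sstr3 and Adra2a, with GC contents of 57.6%, 56.1%, 57.0% and 58.6%, lie in the highest bin, where the median log2 ratio was 0.29, and all 4 had the higher value with p16. Prlr, with 39.4%, lies in the lowest bin and Gpr119, with 44.6%, in the next. These bins had medians of -0.33 and -0.20. Of the 9 receptors, 7 lay within the middle 50% of the genes of their own bin, and Gcgr and Gpr119 lay outside, 0.59 above and 0.56 below the median of their bin on the log2 scale. Ffar1 was placed by its longest transcript and not by its shorter gene model in the table, so its bin is uncertain. The part of GC content in these differences was not tested.

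**Figure D3:**
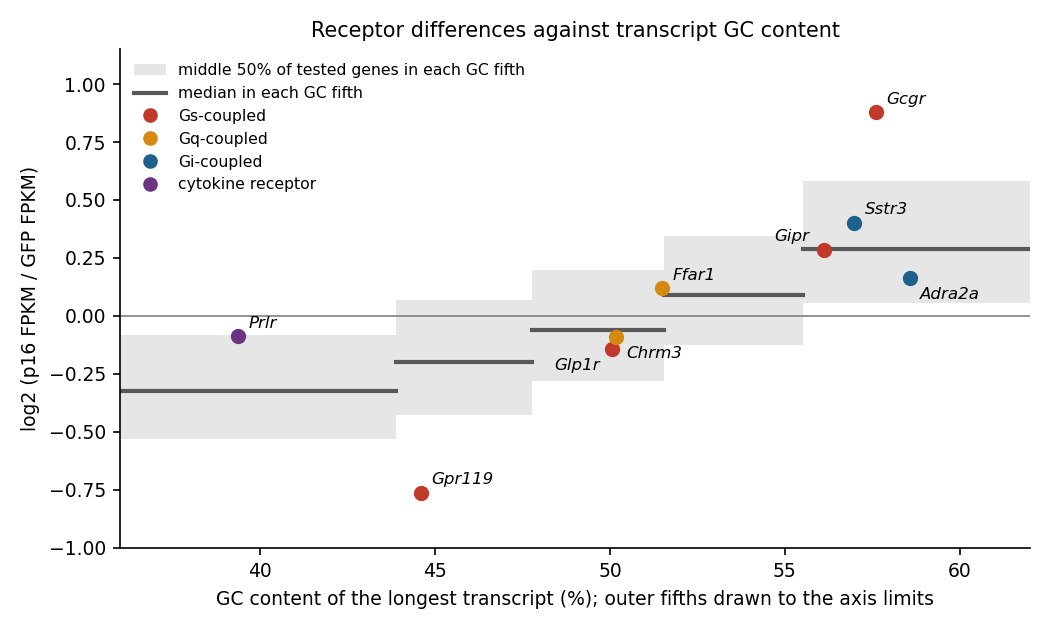
Log2 ratio of p16 to GFP FPKM of the 9 tested receptors (points, coloured by coupling) against the GC content of the longest transcript in percent, over the median (dark line) and the middle 50% (grey) of tested genes of at least 1 FPKM on average in each of 5 GC bins. The medians climb from -0.33 to 0.29 across the bins, and Gcgr and Gpr119 are the receptors outside the grey range.

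Markers of other endocrine cells whose own receptors or hormones belong to this system were measured beside the receptors. Among 9 alpha-cell markers, 8 were tested and 1 passed in the authors' deposited table, in the higher direction. The alpha-cell markers summed to 2231 FPKM in GFP cells and 2850 FPKM in p16 cells, most of it Gcg and Ttr, and none of the 9 is listed at 0 in both groups. Of 7 delta-cell markers 5 were tested and 2 were higher, Sst and Rbp4, and their sum was 1337 and 2835 FPKM. The delta-cell factor Hhex stood at 1.70 and 1.83 FPKM (authors' deposited table, q = 0.945). Cckbr, another delta-cell marker, is listed at 0 in both, and the list itself includes Sstr3. Of 3 PP-cell markers 2 were tested, Ppy and Pyy, and both were higher. The PP-cell markers summed to 569.5 FPKM in GFP cells and 1217 FPKM in p16 cells. The part of other endocrine cells in the values of Gcgr and Sstr3 was not tested.

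The genes of the ligands were next, from a list of 22. Gcg, which encodes both glucagon and GLP-1, stood at 1642 FPKM in GFP cells and 2263 FPKM in p16 cells without passing (authors' deposited table, q = 0.497). Sst, the ligand gene of Sstr3, rose from 1244 to 2678 FPKM. Ppy and Pyy, which encode ligands of none of the 10 receptors, rose 1.95-fold and 2.42-fold. These 3 were the members called of 10 tested, all higher, against a background of 4.32% higher over all tested genes. This list too was chosen with earlier results of these data known. Gip, Adcyap1 and Prl, the ligand genes of Gipr, Adcyap1r1 and Prlr, are listed at 0 in both groups.

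Receptors related to the 10 were compared to see where the 10 stand. Of 124 receptor genes of a wider list, 24 had a mean of at least 10 FPKM, 8 of them among the 10, and 79 had a mean below 1 FPKM. Of the 114 others 48 were tested, of which the authors' deposited table calls 5 higher and 1 lower, or 12.5% against 5.42% of all tested genes, with a median log2 ratio of 0.31. With a mean of at least 1 FPKM required, that median was 0.10. The wider list was chosen with earlier results of these data known, so the share called is not independent evidence. Ptger3, the Gi-coupled prostaglandin E2 receptor EP3, rose 9.64-fold, from 0.882 to 8.50 FPKM. Gprc5c, an orphan receptor, rose 4.67-fold to 18.5 FPKM, and S1pr2, a sphingosine-1-phosphate receptor, rose 6.50-fold to 3.10 FPKM. Vipr1 fell 2.49-fold (authors' deposited table, q = 0.00245). It was the class B receptor that passed, of 5 tested when Glp1r, Gipr and Gcgr are counted with it and Crhr1.

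The nearest relatives of the 10 gave 1 call among 10 tested, that of Vipr1. Ffar2, a short-chain fatty acid receptor, stood at 14.04 and 14.36 FPKM (authors' deposited table, q = 0.974), and Ghr, the growth hormone receptor, at 84.1 and 85.2 FPKM (authors' deposited table, q = 0.990). Ffar4 and Sstr2, named after their values were seen, stood at 7.52 and 14.9 FPKM and at 0.238 and 1.35 FPKM, with q-values of 0.0591 and 0.0672 in the authors' deposited table.

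**Figure D4:**
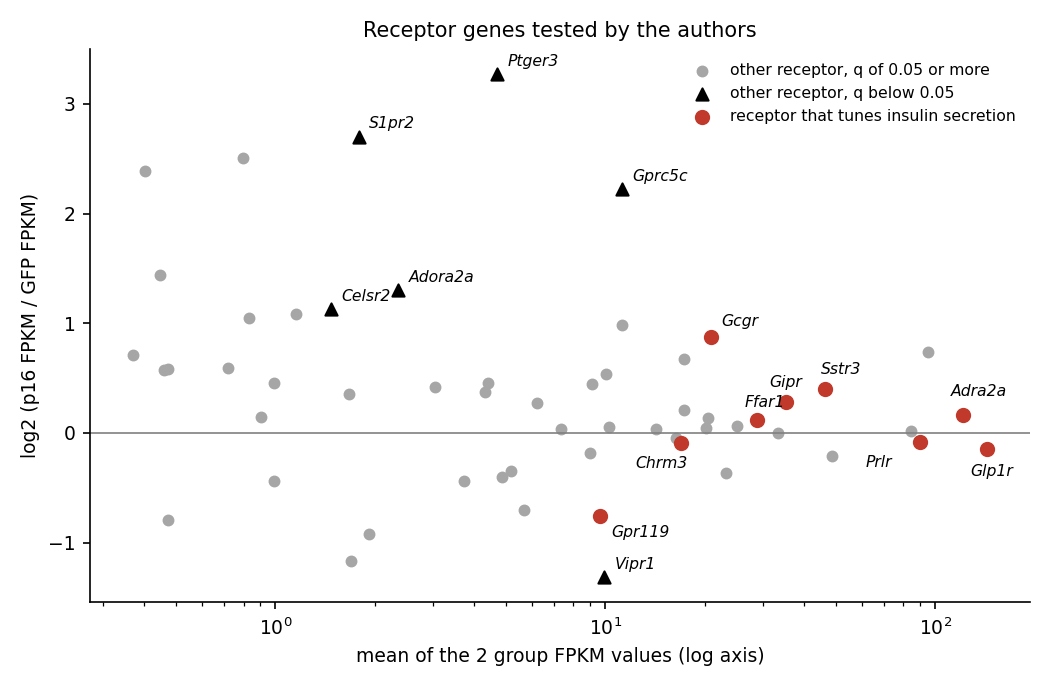
Log2 ratio of p16 to GFP FPKM against the mean of both group values in FPKM, on a log axis, for the 9 tested receptors that tune insulin secretion (red) and 48 other receptor genes (grey, or black triangles at a q below 0.05). The red points lie between -0.76 and 0.88, and 5 black triangles lie above 1 and 1, Vipr1, below -1.

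Beside the receptors, 8 lists covered ligand, G protein, cAMP, phosphodiesterase, phospholipase C, desensitization, prolactin and cAMP response genes. They held 229 genes, of which 182 were tested. The authors' deposited table calls 16 of the 182 higher and 13 lower, or 15.9%. Over all tested genes 5.42% were called (4.32% higher and 1.10% lower). The median log2 ratio of the 182 was 0.04. The 16 include Sst, Ppy and Pyy of the ligand list, and the cAMP response list holds 9 of all the calls. The lists overlap, and each gene was counted once in the 182. Sst was called in both the ligand and the cAMP response list, and Sik1 in both the cAMP and the cAMP response list. All 8 lists were chosen with earlier results of these data known, so their share is not independent evidence. Among 23 tested G protein subunits 2 were higher. Gnaz, a Gi-class alpha subunit, rose 1.88-fold, from 20.6 to 38.7 FPKM, with an uncertain split of reads from the overlapping gene Rtdr1, and Gna14, a Gq-class subunit, rose from 0.528 to 1.42 FPKM. Gnas, the Gs alpha subunit through which Glp1r, Gipr and Gcgr act, stood at 796.7 and 944.7 FPKM (authors' deposited table, q = 0.750).

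Of 32 tested cAMP signalling genes 2 were higher and 1 lower. Sik1, a kinase gene induced by cAMP, fell 2.54-fold, from 20.9 to 8.23 FPKM, while Akap12, an anchor of protein kinase A, rose from 0.588 to 2.24 FPKM. Rapgef3, which encodes Epac1, rose from 0.0750 to 0.507 FPKM, a low level beside Rapgef4, which encodes the main beta-cell form Epac2 and stood at 70.7 and 66.3 FPKM (authors' deposited table, q = 0.923). Of 16 phosphodiesterase genes, which break down cyclic nucleotides, Pde2a rose from 0.201 to 0.933 FPKM, and the abundant Pde3b and Pde5a stood at 46.5 and 61.5 FPKM in GFP cells and 34.9 and 74.0 FPKM in p16 cells without passing (authors' deposited table, q = 0.456 and 0.686).

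On the Gq side, 2 of 30 tested genes were higher and 1 lower. Dgkz, a kinase that removes the second messenger diacylglycerol, rose from 9.58 to 17.2 FPKM. Trpm5, a calcium-activated cation channel, fell 2.41-fold to 17.7 FPKM. The other locus-sharing genes named here are Pde2a, Dgkz and Arrb1, each with a microRNA gene, and Pde5a.

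A list of receptor kinases, arrestins, RGS proteins and receptor-associated proteins (the Ramp and Reep genes among them) held 2 higher and 2 lower of 27 tested genes. Rgs4, which speeds the shut-off of Gi and Gq signals, fell 2.92-fold, from 181.2 to 61.9 FPKM. Rgs11, a related regulator, rose 2.38-fold, from 9.86 to 23.5 FPKM. The arrestin gene Arrb1 rose from 0.541 to 1.64 FPKM and Arrdc3, an arrestin-domain gene, fell from 57.5 to 27.8 FPKM.

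For prolactin signalling 3 of 28 tested genes were higher and 3 lower. Among the feedback inhibitor genes, Socs1 rose from 0.989 to 4.03 FPKM and Socs3 fell from 72.2 to 28.4 FPKM. Cish and Socs2, named after their values were seen, did not pass (authors' deposited table, q = 0.929 and 0.593). Cish stood at 44.4 FPKM in GFP cells and 47.3 FPKM in p16 cells, and Socs2 at 27.1 and 34.1 FPKM. Pbk and Cdkn2c, which act in cell division and cell cycle arrest, fell 3.73-fold and 2.73-fold. Jak2 and Stat5b, through which Prlr signals, stood at 13.4 and 22.8 FPKM in GFP cells and 23.6 and 20.9 FPKM in p16 cells without passing (authors' deposited table, q = 0.0505 and 0.879). They were named after their values were seen.

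Genes known as targets of the cAMP response factor CREB included 2 higher and 7 lower of 24 tested, with a median log2 ratio of -0.48. Those that fell include Fos, from 599.9 to 94.3 FPKM, Egr1, from 243.2 to 61.3 FPKM, and Dusp1, from 163.3 to 41.1 FPKM, which are immediate early genes that many other stimuli also induce. Ppargc1a, a coactivator gene, rose from 0.0701 to 1.13 FPKM. The called genes of this list also include Sik1, lower, and Sst, higher, both already given with other lists. The list was chosen with earlier results of these data known, so its direction is not independent evidence.

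**Figure D5:**
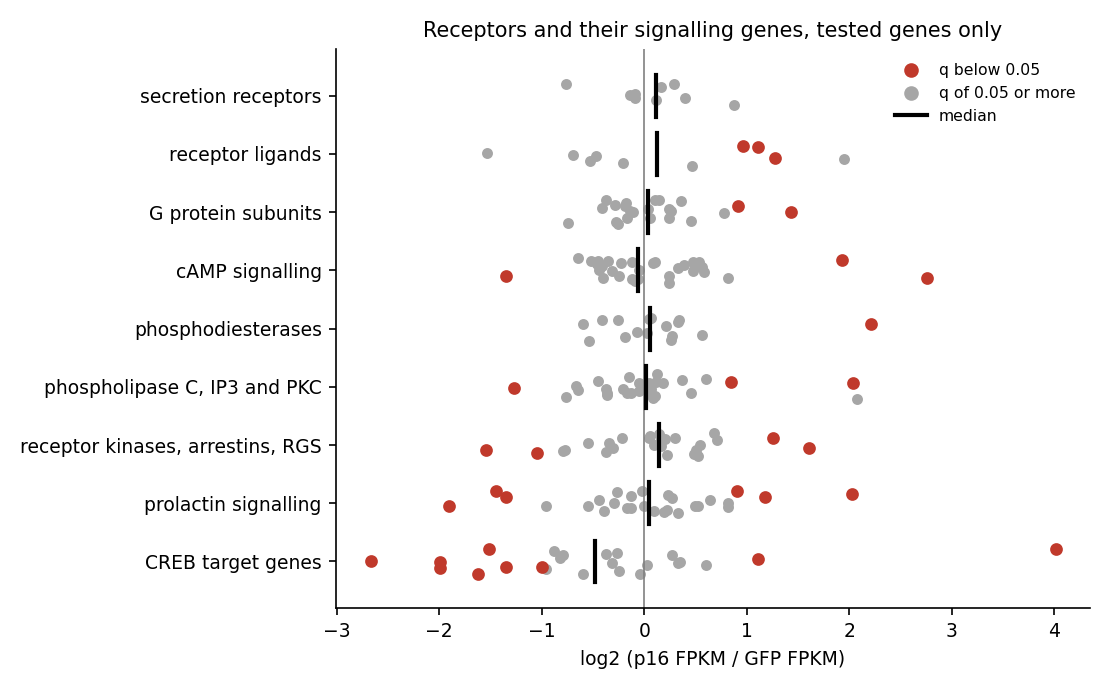
Log2 ratio of p16 to GFP FPKM for each tested gene (points; red at a q below 0.05, grey otherwise) of the receptors and of 8 lists of their ligand and signalling genes, with the median of each (black bar; points are spread vertically for legibility). The receptor row has no red point, and the list of CREB targets has the lowest median, -0.48.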

How the data were processed

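The authors used TopHat2, Cuffnorm and Cuffdiff with the mm9 build, per the submitters' processing notes, which name no versions, annotation, scaling or strand setting. The deposited table gives each gene 1 FPKM value per group, a test score (the Cuffdiff statistic), a p-value and a q-value. Count models do not suit FPKM and were left out, and the depth of each sample is unknown. Benjamini-Hochberg adjustment of the deposited p-values over 13264 tested genes gave the deposited q-values within 5.23e-07. The planned limma fit needs values per sample, so the authors' calls were read, as planned for that case.

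Log2 ratios were recomputed from FPKM without a pseudocount. Starts were raised by 1, since lengths then matched RefSeq for 299 of 314 microRNA genes. GC content came from the longest GENCODE M21 transcript (99.1% of tested genes matched). Intervals are at 95%, the standard error being the log2 ratio over the normal quantile of the authors' p. Newer symbols were matched to older ones through RefSeq's gene table (GRCm38.p6), used for names and lengths only. The members and lists were chosen with earlier results of these data known. Named genes were all 10 receptors, up to 4 called genes of largest change per list, or the 2 most abundant where fewer than 2 passed, and for markers the 2 most abundant and those called. Some genes the rule selects are not printed. Outside the rule, Gnas, Rapgef4, Hhex, Cckbr, Ptprc, Gip, Adcyap1, Prl, Ins1, Ins2 and Iapp were printed as well, with their values known. The adjustment and scaling code was tested on simulated data. Software was scipy 1.17.1, pandas 2.3.3, matplotlib 3.10.9 and numpy 2.4.6 under Python 3.11.15.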

Additional observations from a re-analysis of the deposited data

How the results depend on the processing

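No receptor passed at a q below 0.01, with p adjusted over genes with a mean of at least 1 or 5 FPKM (q of Gcgr 0.0587 and 0.0638), or by Bonferroni. At a q below 0.1, 1 receptor passed, Gcgr, where 7.73% of tested genes did. By Bonferroni 0 of the 182 tested ligand and signalling genes passed, as did 0 of all genes, since the authors' smallest p, 5e-05, times 13264 exceeds the threshold. The count for the 182 was 29 as reported and 20 to 35 under the other thresholds and filters. The median log2 ratio of the 10 receptors ranged from -0.02, with GC medians subtracted, to 0.12, without Adcyap1r1. The GC alternative was chosen after seeing the data. Counts in single lists that moved by over 1.5 times, besides Bonferroni, were other receptors (6, or 2 with the 5 FPKM filter), receptor relatives (1, or 4 at a q below 0.1), G protein subunits (2, or 1 with either filter and 0 at a q below 0.01), cAMP genes (3, or 1 with the 5 FPKM filter), phosphodiesterases (1, or 0 with either filter) and Gq genes (3, or 1 at a q below 0.01 and 5 at a q below 0.1). The median of the ligand genes, 0.13, was -0.21 for those with a mean of at least 1 FPKM. No paired analysis was possible because the table holds group values and no column per sample; limma, DESeq2 and leaving out samples were not run for the same reason.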

Other observations

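Further genes of the lists, outside the rule for naming and picked after their values were seen, passed or came near the threshold. Adora2a, a Gs-coupled adenosine receptor, rose from 1.36 to 3.35 FPKM and Celsr2, an adhesion receptor, from 0.926 to 2.02 FPKM (q = 0.0223 and 0.0142 in the authors' deposited table). Gpr56, an adhesion receptor, stood at 71.2 FPKM in GFP cells and 119.1 FPKM in p16 cells (authors' deposited table, q = 0.0775). Gpr6, an orphan receptor related to Gpr3 and Gpr12, stood at 4.95 and 1.498 FPKM (authors' deposited table, q = 0.0744). Rgs2, a regulator of Gq signals, stood at 54.7 and 31.5 FPKM (authors' deposited table, q = 0.0897).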
